A study of Rattus with 6 samples.

Results

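The genes followed here are the cadherin genes Cdh2 (N-cadherin, NCBI Gene 83501), Cdh11 (cadherin-11 or OB-cadherin, NCBI Gene 84407) and Cdh13 (T-cadherin, NCBI Gene 192248), with the protocadherin gene Pcdh20 (NCBI Gene 306081). They were found by symbol in the deposited table and make up 4 of its 16690 genes. They were chosen by their FPKM values in these same libraries, so their difference between disease and control is described with its standard error and is not tested. All 4 passed the filter on low values, Pcdh20 through its CKD libraries alone.

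RNA was sequenced from bone marrow mesenchymal stem cells (BMSCs), the adherent stromal cells of the marrow, grown from femurs and tibias of Sprague Dawley rats in medium with fetal bovine serum. Chronic kidney disease (CKD) rats gave 3 libraries and healthy rats gave 3 control libraries, all of them wild-type by label. How the disease was induced, and the age and sex of the rats, are not given in the sources used here. The protocol for RNA extraction names exosomes while the design text names the cells, so which of these the values describe is not settled. The disease model tag contradicts the title, library name and column code for 2 libraries, giving control for CKD replicate 1 and CKD for control replicate 2. The groups here follow the column codes, and the values without both libraries stand beside the results.

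Cadherins are membrane proteins that bind each other between neighbouring cells through extracellular repeats held rigid by calcium. Classical cadherins such as N-cadherin and cadherin-11 pass through the membrane and attach by their tails to catenins, which link them to actin. T-cadherin has no tail and is held by a lipid anchor, and it is also known as a receptor for adiponectin. Protocadherins share the extracellular repeats but do not bind beta-catenin in the classical way. Cadherin-11 and N-cadherin are the cadherins best known from osteoblasts and marrow stroma.

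Libraries held 34404037 to 46892613 recovered fragments, and the fit took the 10638 genes that reached 1 FPKM in 3 or more libraries. FPKM scales fragments by gene length and by library depth, so levels of different genes can be set side by side. The 11 stromal markers summed to 14273, 8692 and 8456 FPKM in CKD replicates 1, 2 and 3, against 13443, 10452 and 10802 FPKM in control. Col1a1, a fibrillar collagen, lay at 2620 to 5881 FPKM, and most of the stromal sum came from it, Col1a2 and Col3a1. Thy1 (CD90) lay at 505 to 801 FPKM. Eng (endoglin, CD105) was uneven, at 10.8, 20.4 and 21.8 FPKM in CKD, against 11.8, 83.4 and 88.8 FPKM in control, and Lepr, a marker of marrow stroma in vivo, stayed at or under 0.246 FPKM. The 5 pericyte and smooth muscle markers in the table summed to 9068, 3518 and 4349 FPKM in CKD, against 4871, 5046 and 4766 FPKM in control. Most of that sum came from Acta2 and Tagln, so it says little about the rest of the list. Summed levels of 3 epithelial markers stayed at or under 1.01 FPKM, and those of 6 endothelial markers at or under 2.78 FPKM. The endothelial markers Pecam1 and Cdh5 reached at most 0.172 and 0.153 FPKM. Of the same list, Tie1 was 2.48 and 2.31 FPKM in CKD replicates 2 and 3 and at most 0.154 FPKM elsewhere. Tek was 2.25 and 2.31 FPKM in control replicates 2 and 3 and at most 0.644 FPKM elsewhere. Markers of haematopoietic cells and macrophages differed widely between libraries of the same group. Their 16 genes summed to 62.9, 1068 and 739 FPKM in CKD replicates 1, 2 and 3, against 130, 13.6 and 10.7 FPKM in control replicates 1, 2 and 3. Such bulk values cannot tell fewer cells of a type from less RNA per cell.

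Among the 13 genes of the table named Cdh with a number, Cdh11 had the highest FPKM in all 6 libraries, and its level was close in both groups. Cdh11 measured 57.3, 47.4 and 43.7 FPKM in CKD replicates 1, 2 and 3, against 59.3, 48.1 and 45.0 FPKM in control replicates 1, 2 and 3. The groups overlapped almost entirely, and the first replicate was the highest of each. The mean was 49.5 ± 7.05 FPKM in CKD libraries, beside 50.8 ± 7.56 FPKM in control libraries (SD, n = 3 each), with a log2 fold change of -0.04 ± 0.15 SE on the log2(FPKM + 1) scale. Between 8695 and 14830 fragments per library lie behind these values, so counting error is small against the spread between libraries. The sign of this small difference was not fixed, at 0.05 without CKD replicate 3 and 0.08 without control replicate 1. The authors' deposited table gave a log2 fold change of -0.11 for Cdh11.

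N-cadherin was about 1 order of magnitude higher in CKD. Cdh2 measured 15.4, 12.9 and 11.5 FPKM in CKD replicates 1, 2 and 3, against 1.95, 1.02 and 0.769 FPKM in control replicates 1, 2 and 3. Every CKD library lay above every control library, with the lowest CKD value 5.89 times the highest control value. The mean was 13.3 ± 1.98 FPKM in CKD libraries, beside 1.25 ± 0.625 FPKM in control libraries (SD, n = 3 each), a ratio of 10.7 and a log2 fold change of 2.69 ± 0.22 SE. Among control libraries the highest value was 2.54 times the lowest. The lowest of these levels, in control replicate 3, rested on 143 fragments, and its exact Poisson 95% interval ran from 0.648 to 0.906 FPKM. Its log2 fold change was 2.53 when both libraries with conflicting tags were left out, and 2.80 when both first replicates were.

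T-cadherin had the largest of the 4 log2 fold changes on the log2(FPKM + 1) scale, but this order depended on the setting. Pcdh20 exceeded it with a pseudocount of 0.1 and in limma-voom, and both Pcdh20 and Cdh2 did with haematopoietic markers as a covariate. Cdh13 measured 25.8, 39.3 and 43.6 FPKM in CKD replicates 1, 2 and 3, against 5.71, 2.01 and 1.54 FPKM in control replicates 1, 2 and 3. The groups did not overlap, and the first replicates were closest to each other, since CKD replicate 1 was the lowest of its group and control replicate 1 the highest. The mean was 36.2 ± 9.30 FPKM in CKD libraries, beside 3.09 ± 2.28 FPKM in control libraries (SD, n = 3 each), with a log2 fold change of 3.29 ± 0.41 SE. Between the first replicates the ratio of CKD to control was 4.52, while between the means of the other 2 replicates it was 23.4. Leaving out both libraries with conflicting tags gave 3.36, and leaving out both first replicates gave 3.94. With the mean of the haematopoietic markers as a covariate it was 2.37 ± 0.33 SE.

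Protocadherin 20 stayed under 1 FPKM in all control libraries and exceeded 5 FPKM in all CKD libraries. Pcdh20 measured 5.80, 6.84 and 8.41 FPKM in CKD replicates 1, 2 and 3, against 0.0288, 0.541 and 0.408 FPKM in control replicates 1, 2 and 3. The groups did not overlap, and the lowest CKD library was 10.7 times the highest control library. In control replicate 1 the value rested on 7 fragments, with an exact Poisson 95% interval from 0.0116 to 0.0594 FPKM. That interval lies below the intervals of control replicate 2 (0.448 to 0.649 FPKM) and control replicate 3 (0.324 to 0.508 FPKM), so the control libraries differed from each other by more than counting error. These intervals cover counting error only. The mean was 7.02 ± 1.31 FPKM in CKD libraries, beside 0.326 ± 0.266 FPKM in control libraries (SD, n = 3 each), with a log2 fold change of 2.60 ± 0.20 SE. Because the values in control lie under 1 FPKM, the pseudocount of 1 shrinks this difference. Leaving out both libraries with conflicting tags gave 2.83, and leaving out both first replicates gave 2.54. It was 4.34 ± 0.63 SE with a pseudocount of 0.1 FPKM and 5.28 ± 0.89 SE in limma-voom on recovered counts. The authors' deposited table gave 4.35 for Pcdh20, beside 3.33 for Cdh2 and 3.46 for Cdh13.

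**Figure D1:**
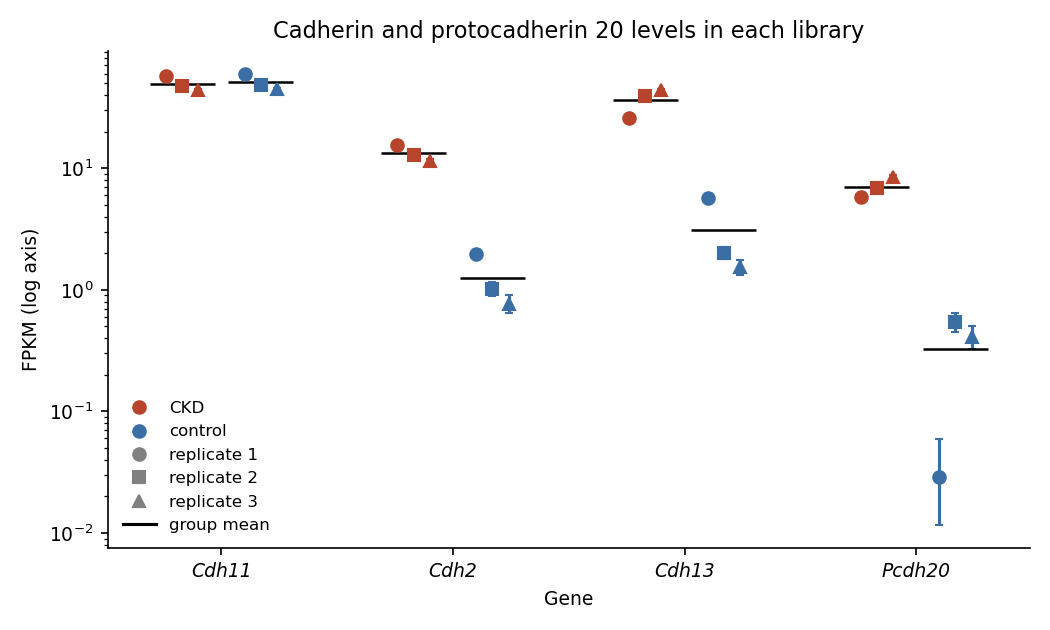
Level of each gene in each library in FPKM on a log axis, CKD in red and control in blue, with 1 symbol per replicate, black lines at group means and bars for exact Poisson 95% intervals. Cdh11 lies between 43.7 and 59.3 FPKM in both groups, while for Cdh2, Cdh13 and Pcdh20 all CKD libraries lie above all control libraries.

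Of the 4 genes, 3 had groups that did not overlap with CKD higher, where this held for 18.3% of all tested genes. The fit across all genes (limma) called the same 3 genes higher at an adjusted p under 0.05, where 1.33% of all tested genes were called higher and 2.07% in either direction. Both counts restate the contrast on which the genes were picked, and nothing is read from them. When replicate 2 or 3 of either group was left out, limma called 0 of the 4, and called 1 to 3 higher and 5 to 7 lower genes in the whole table. When replicate 1 of either group was left out it called 3 of the 4. It called 2 without both libraries with conflicting tags (Cdh2 and Pcdh20). It called 1 with libraries of a shared name start averaged (Pcdh20), and 0 with the haematopoietic markers as a covariate. These counts too rest on the contrast on which the genes were picked, and no ranking of the genes is read from them.

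The order of the 4 genes by FPKM was the same in every library, with Cdh11 above Cdh13, Cdh13 above Cdh2 and Cdh2 above Pcdh20. What differed was the spacing. In CKD replicate 3 Cdh13 reached 99.9% of the level of Cdh11, and in CKD replicates 1 and 2 it reached 45.0% and 82.8%. In control replicates 1, 2 and 3 the share was 9.62%, 4.18% and 3.42%. In CKD the ranges of Cdh11 and Cdh13 over libraries thus nearly touched, and in control those of Cdh13 and Cdh2 overlapped. N-cadherin kept a nearly fixed relation to cadherin-11 in CKD, at 26.9%, 27.2% and 26.4% of the Cdh11 level in replicates 1, 2 and 3, against 3.29%, 2.11% and 1.71% in control replicates 1, 2 and 3. Within both groups Cdh2 and Cdh11 were highest in the first replicate and lowest in replicate 3. Pcdh20 went the other way inside each group, lowest in the first replicate of CKD and of control.

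Across the 6 libraries, log2 levels of Cdh2 correlated with those of Cdh13 at r = 0.97 (Spearman rho 0.77) and with those of Pcdh20 at r = 0.94 (rho 0.60). Those of Cdh13 and Pcdh20 correlated at r = 0.93 (rho 0.83). Cdh11 did not follow them, with r = 0.06 for Cdh2, -0.02 for Cdh13 and -0.26 for Pcdh20. These are descriptions over 6 libraries in 2 groups, and the high coefficients carry the difference between the groups.

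Summed over the 13 genes of the table named Cdh with a number, cadherin transcripts came to 102, 104 and 102 FPKM in CKD replicates 1, 2 and 3, against 79.0, 59.1 and 54.6 FPKM in control replicates 1, 2 and 3. The CKD libraries were all higher, and they lay closer together than the control libraries. Cdh2 and Cdh13, picked on this same contrast, are part of the sum. Its difference and the shares below therefore restate that choice in part, and nothing is concluded from them. Cdh11 made up 56.1%, 45.8% and 42.7% of that sum in CKD replicates 1, 2 and 3, against 75.1%, 81.3% and 82.4% in control replicates 1, 2 and 3. Cdh13 made up 25.2%, 37.9% and 42.6% in CKD, against 7.23%, 3.40% and 2.82% in control. Cdh2 made up 15.1%, 12.4% and 11.2% in CKD, against 2.47%, 1.72% and 1.41% in control. The remaining large share was that of P-cadherin (Cdh3), which ran from 1.46% to 2.34% in CKD and from 11.1% to 14.04% in control. Among these 13 genes the largest shares after that of Cdh11 were thus those of Cdh13 and Cdh2 in CKD and that of Cdh3 in control. Cadherins with other names are not in this sum. The Fat cadherin gene Fat1, above Cdh11 in every library, measured 109, 64.1 and 78.0 FPKM in CKD, against 131, 120 and 117 FPKM in control.

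**Figure D2:**
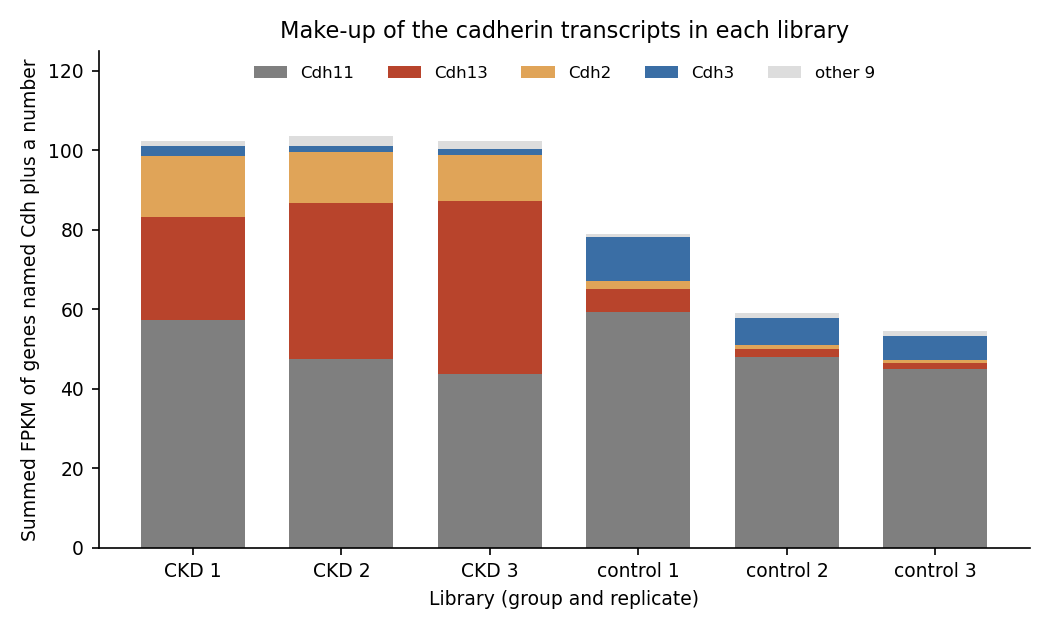
Stacked bars of FPKM summed over the 13 genes named Cdh with a number, by library, with CKD on the left. The sum is 102 to 104 FPKM in CKD and 54.6 to 79.0 FPKM in control, and the Cdh11 segment changes little. The Cdh13 and Cdh2 segments are wide in CKD while the Cdh3 segment is wide in control. Cdh13 and Cdh2 were picked on the contrast between the groups.

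Relatives and partners of these genes were taken from 8 lists with 164 genes, of which 139 were in the table and 77 were tested. Limma called 0 of the 77 higher and 3 lower in CKD, or 3.9% lower, where 0.733% of all tested genes were called lower and 1.33% higher. At an unadjusted p under 0.05 there were 2 higher and 13 lower genes, and limma-voom called 0 higher and 1 lower. The median log2 fold change was -0.05 over the lists and 0.05 over all tested genes. Groups did not overlap with CKD higher in 3 of the 77 genes, and with CKD lower in 11, or 3.9% and 14.3%, beside 18.3% and 9.59% of all tested genes. The 3 called genes were the cadherin gene Cdh3, the transcription factor gene Zeb1 and the Wnt co-receptor gene Lrp6. The counts rested on the libraries in the fit. Leaving out replicate 2 or 3 of either group gave 0 higher and 0 lower. Leaving out CKD replicate 1 gave 5 and 10, control replicate 1 gave 5 and 11, both libraries with conflicting tags 1 and 1, and both first replicates 24 and 28.

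P-cadherin, a type I classical cadherin like N-cadherin and best known from epithelia, fell in CKD. Cdh3 measured 2.39, 1.51 and 1.51 FPKM in CKD replicates 1, 2 and 3, against 11.1, 6.69 and 6.06 FPKM in control replicates 1, 2 and 3. The groups did not overlap, and the first replicate was the highest of each. The log2 fold change was -1.65 ± 0.24 SE (limma adjusted p = 0.0439). Leaving out CKD replicate 2 (limma adjusted p = 0.199), CKD replicate 3 (0.229), control replicate 2 (0.153), control replicate 3 (0.181) or both libraries with conflicting tags (0.0695) ended the call. The log2 fold change of Cdh3 stayed between -2.13 and -1.41 in all 16 alternative settings.

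Of 16 classical cadherins in the list 8 were in the table, and the 7 besides Cdh3 did not reach the filter. Cdh1, which encodes E-cadherin and is the next protein-coding gene to Cdh3 in the RefSeq annotation of GRCr8, reached at most 0.126 FPKM. Cdh5, which encodes VE-cadherin of endothelium and neighbours Cdh11 there, reached at most 0.153 FPKM. Cdh15, which encodes M-cadherin of muscle precursors, exceeded 0.1 FPKM in CKD replicates 2 and 3 only, at 0.0653, 1.66 and 1.05 FPKM in CKD replicates 1, 2 and 3, against 0.0239, 0.0134 and 0 FPKM in control replicates 1, 2 and 3. Beside it Myod1, a transcription factor of myoblasts, had 0.0133 FPKM for CKD replicate 1, 4.33 for replicate 2 and 4.04 for replicate 3. Cdh2 was highest in the first of these libraries. The part of myogenic RNA in the Cdh2 level was not tested. The 4 myogenic markers in the table summed to 0.807, 40.8 and 41.6 FPKM in CKD replicates 1, 2 and 3, against 0.417, 1.14 and 1.204 FPKM in control. Cdh24 lay between 0.621 and 1.01 FPKM in CKD and between 0.272 and 0.843 FPKM in control.

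Limma called 0 of the 2 other tested protocadherins outside the clusters, with 0 at an unadjusted p under 0.05 and 0 called by limma-voom. Pcdh18 measured 2.44, 1.37 and 1.26 FPKM in CKD replicates 1, 2 and 3, against 3.49, 1.30 and 1.23 FPKM in control. Pcdh19, known for its part in neuronal adhesion, stood at 6.75, 2.06 and 2.17 FPKM in CKD, against 9.37, 5.63 and 5.19 FPKM in control (limma adjusted p = 0.304). Both were highest in the first replicate of each group. Pcdh7 did not reach the filter, with values of 0.242, 0.326 and 0.317 FPKM in CKD, against 0.768, 1.96 and 1.98 FPKM in control, all 3 CKD values being lower. Of the 37 genes of the protocadherin clusters in the table, 8 were tested, and limma called 0, with 2 lower at an unadjusted p under 0.05 and 0 called by limma-voom. Genes within these clusters share sequence, so fragments may have been split between them and single values are uncertain. Among the 5 tested genes for other cadherins and cadherin-related proteins, such as Fat1, limma and limma-voom called 0. Of these genes, 2 were lower at an unadjusted p under 0.05.

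The catenins, which carry classical cadherins on the inside of the membrane, showed no called change. Of 20 tested genes for catenins and linkers of adherens junctions, limma and limma-voom called 0, and 3 were lower at an unadjusted p under 0.05. Ctnnb1 (beta-catenin) stood at 99.7, 96.1 and 97.7 FPKM in CKD, against 100, 75.1 and 75.2 FPKM in control (limma log2 fold change 0.24 ± 0.13 SE, adjusted p = 0.329). It was called without control replicate 1 (log2 fold change 0.38, limma adjusted p = 0.0292). Ctnnd1 (p120-catenin, which keeps cadherins at the surface) stood at 55.8, 57.3 and 57.5 FPKM in CKD, against 54.1, 49.2 and 48.4 FPKM in control, groups that did not overlap (limma log2 fold change 0.17 ± 0.07 SE, adjusted p = 0.252). Mean Ctnna1 (alpha-catenin) was 61.2 ± 11.5 FPKM in CKD libraries, beside 62.0 ± 9.88 FPKM in control libraries (SD, n = 3 each). Mean Vcl (vinculin, which binds actin) was 151 ± 23.1 FPKM in CKD libraries, beside 140 ± 30.7 FPKM in control libraries. Jup (plakoglobin) was lower in all CKD libraries, at 2.29, 3.65 and 3.82 FPKM, against 3.87, 7.12 and 7.97 FPKM in control, without passing the test (limma log2 fold change -0.76 ± 0.28 SE, adjusted p = 0.192). Jup was called without control replicate 1 (limma adjusted p = 0.0411).

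Among transcription factors known for switching cells between E-cadherin and N-cadherin, Zeb1 fell in CKD. It measured 8.14, 6.76 and 6.85 FPKM in CKD replicates 1, 2 and 3, against 11.8, 11.7 and 10.7 FPKM in control (limma log2 fold change -0.59 ± 0.09 SE, adjusted p = 0.0463). It was no longer called when CKD replicate 2 (limma adjusted p = 0.202), CKD replicate 3 (0.235), control replicate 2 (0.201), control replicate 3 (0.210) or both libraries with conflicting tags (0.0664) were left out. Its paralog Zeb2 lay higher in all CKD libraries, at 11.4, 21.7 and 20.2 FPKM, against 8.64, 10.7 and 10.3 FPKM in control, and did not pass (limma log2 fold change 0.74 ± 0.25 SE, adjusted p = 0.165). Zeb2 is also expressed in leukocytes, and the libraries with its highest values, CKD replicates 2 and 3, were those with the most haematopoietic marker RNA. With the mean of those markers as a covariate the log2 fold change of Zeb2 was 0.37 ± 0.32 SE (limma adjusted p = 0.754). That fit called 6 higher and 11 lower genes in the whole table. In the first replicates, where Zeb2 was 11.4 FPKM in CKD and 8.64 FPKM in control, the markers summed to 62.9 and 130 FPKM. Whether leukocyte RNA had a part in the Zeb2 level was not tested beyond that covariate. Zeb2 was called without CKD replicate 1 (limma adjusted p = 0.0104) and without both libraries with conflicting tags (0.0485). Mean Twist1 was 21.1 ± 0.686 FPKM in CKD libraries, beside 21.3 ± 1.53 FPKM in control libraries, and mean Snai1 was 31.6 ± 4.77 FPKM in CKD libraries, beside 30.3 ± 4.58 FPKM in control libraries (SD, n = 3 each). Of the 10 tested factors, the called one was Zeb1.

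Among 18 tested partners of N-cadherin and T-cadherin, Lrp6, a Wnt co-receptor reported to bind N-cadherin in bone cells, fell in CKD. It measured 18.9, 14.6 and 16.1 FPKM in CKD replicates 1, 2 and 3, against 36.3, 31.2 and 31.4 FPKM in control (limma log2 fold change -0.96 ± 0.12 SE, adjusted p = 0.0344). Leaving out CKD replicate 2 (limma adjusted p = 0.161), CKD replicate 3 (0.210), control replicate 2 (0.135) or control replicate 3 (0.188) ended the call, and leaving out both libraries with conflicting tags did not (0.0458). Fgfr1, a growth factor receptor that N-cadherin can stabilise at the surface, was lower in all CKD libraries, at 18.9, 32.8 and 32.8 FPKM, against 52.1, 70.7 and 72.0 FPKM in control. The difference missed the threshold (limma log2 fold change -1.20 ± 0.25 SE, adjusted p = 0.08) and was called without CKD replicate 1 (0.0269) or control replicate 1 (0.0447). Among 13 tested genes of cadherin cleavage, limma and limma-voom called 0, with 1 higher and 1 lower at an unadjusted p under 0.05. Adam10, the protease that sheds N-cadherin, had a mean of 32.9 ± 7.36 FPKM in CKD libraries, beside 26.7 ± 1.96 FPKM in control libraries (SD, n = 3 each).

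**Figure D3:**
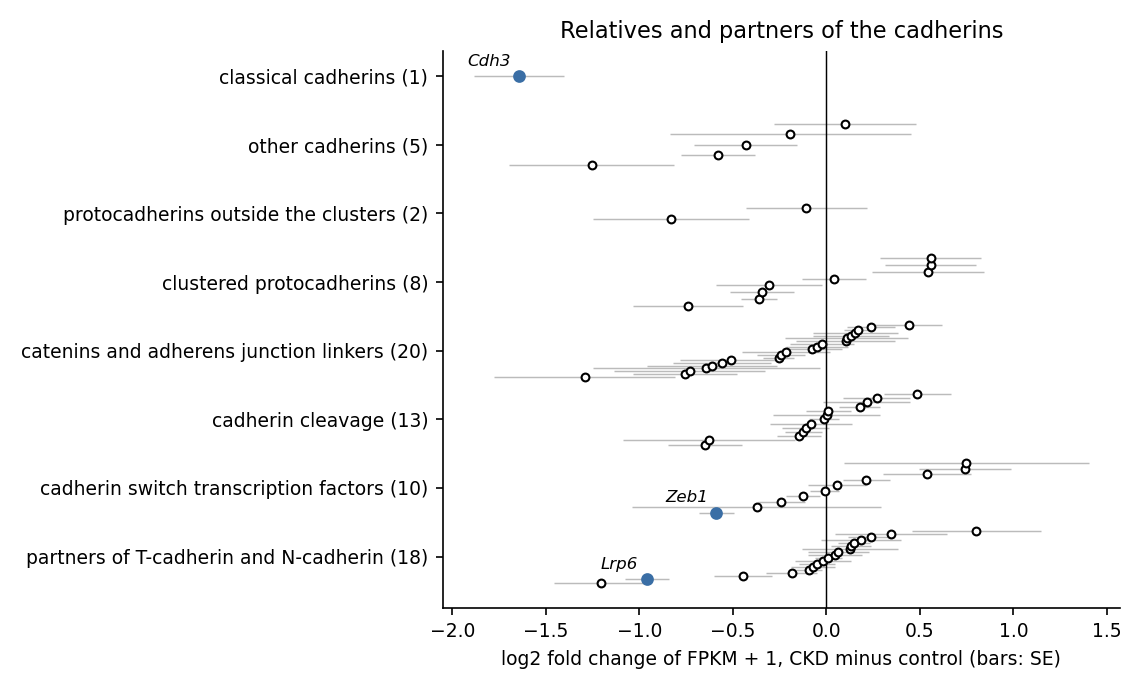
Log2 fold change of FPKM + 1, CKD minus control, for the 77 tested genes of the 8 lists, with 1 point per gene, bars for the SE and the number of tested genes in brackets. The 3 filled points, Cdh3, Zeb1 and Lrp6, were called by limma and all lie left of 0.

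Other measures also differed between the groups, the contrast on which the 3 genes that were higher in CKD were picked. The 10 cell cycle markers summed to 63.7, 92.8 and 89.4 FPKM in CKD replicates 1, 2 and 3, against 19.3, 31.8 and 26.8 FPKM in control replicates 1, 2 and 3. These sums did not overlap, and limma called 7 of the 10 markers. Of all tested genes 2.07% were called in either direction, and 18.3% did not overlap with CKD higher. The 2 Schwann cell and neural markers in the table ran the other way, with summed levels of 6.75, 9.15 and 9.85 FPKM in CKD, against 16.2, 18.2 and 18.1 FPKM in control, and limma called 1 of them. The part of both lists in the levels of Cdh2, Cdh13 and Pcdh20 was not tested. The 16 haematopoietic markers were far higher in CKD replicates 2 and 3 (1068 and 739 FPKM) than in control replicates 2 and 3 (13.6 and 10.7 FPKM), as Cdh2, Cdh13 and Pcdh20 were. The covariate was the mean log2(FPKM + 1) of the 13 of these markers that were tested. With it the log2 fold changes were 2.59 ± 0.34 SE for Cdh2, 2.37 ± 0.33 SE for Cdh13 and 2.65 ± 0.31 SE for Pcdh20. Limma then called 0 of these 3 genes, with 6 higher and 11 lower genes called in the whole table. In the first replicates the markers summed to 62.9 FPKM in CKD and 130 FPKM in control, 2 of the 16 being higher in CKD. In the same pair of libraries Cdh2 was at 15.4 FPKM in CKD and 1.95 FPKM in control, Cdh13 at 25.8 and 5.71 FPKM, and Pcdh20 at 5.80 and 0.0288 FPKM. Whether marker RNA had a part in these levels was not tested beyond the covariate.

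The tested genes whose log2 levels ran most like those of each of the 4 over the 6 libraries were ranked by Pearson r. For Cdh13 they were Tp53i11, Tfrc (the transferrin receptor), Orc6 (a replication origin protein), G3bp1 and Psme3, with r from 0.997 to 0.999. Tfrc measured 42.9, 49.7 and 50.3 FPKM in CKD replicates 1, 2 and 3, against 17.1, 10.0 and 9.49 FPKM in control, so its first replicates were also closest to each other. For Cdh2 they were Fmnl3 (a formin of the actin cytoskeleton), Ccne1 (cyclin E1), Tcp1 (a chaperonin subunit), Emg1 and Pelp1, with r from 0.993 to 0.996. For Pcdh20 they were Ckap5 (a microtubule polymerase), the long non-coding RNA gene Crnde, Cdc25c (a phosphatase of mitotic entry), Pitrm1 and Fhod1 (another formin), with r from 0.996 to 0.998. For Cdh11 they were Hyi, Timm8b, Alkbh3, Atf4 (a transcription factor of amino acid stress) and Abitram, with r from 0.986 to 0.993. High coefficients are common over 6 libraries, and of 10634 other genes 370, 231, 251 and 64 exceeded 0.95 with Cdh13, Cdh2, Pcdh20 and Cdh11.

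**Figure D4:**
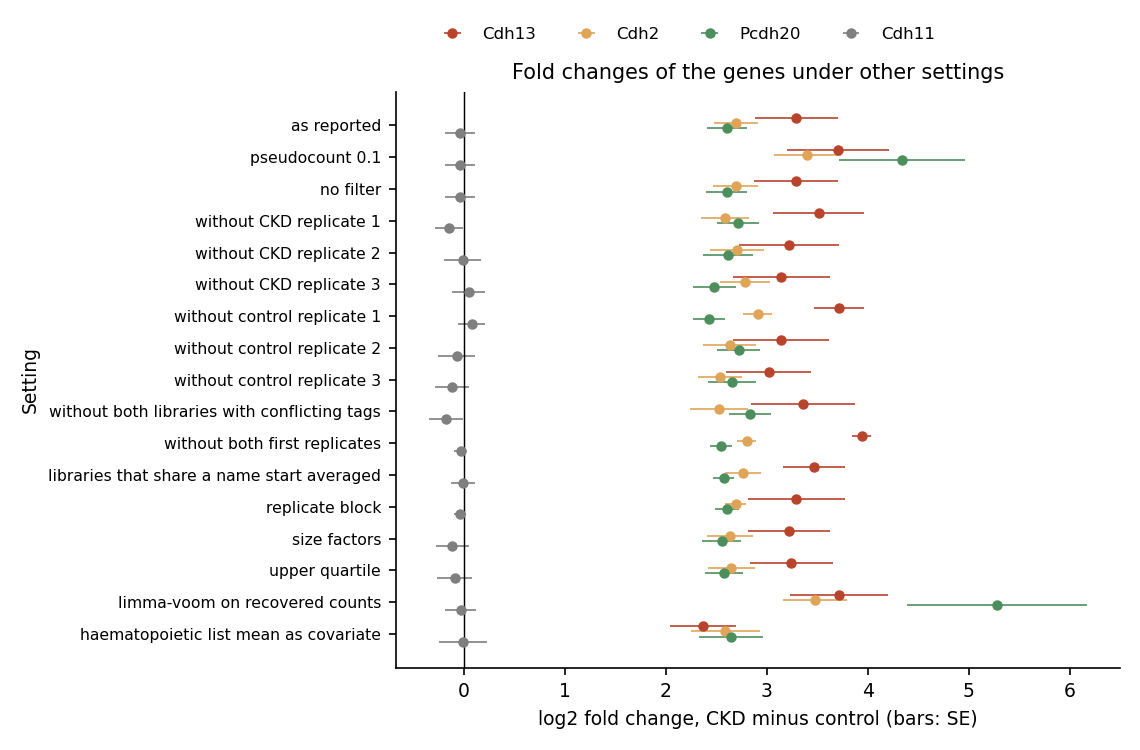
Log2 fold change of the 4 genes, CKD minus control, in the reported fit and 16 alternative settings, with bars for the SE. Cdh13, Cdh2 and Pcdh20 stay at 2.37 or more in every setting drawn, while Cdh11 stays between -0.18 and 0.08.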

How the data were processed

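The authors' deposited file lists 16690 genes with FPKM for each library, mean normalized counts per group, a fold change, log2 fold change, p-value and q-value, per the file headers. The submitters' processing notes name the build mRatBN7.2 and the tools DESeq 1.34.1, DESeq2 1.22.2, HTSeq 0.11.2, SAMtools 1.9, HISAT2 2.1.0 and FastQC 0.11.9, without order or settings. Libraries were poly-A selected and stranded, per the labels' protocols.

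On the scale log2(FPKM + 1), CKD minus control was fitted with limma 3.58.1 under R 4.3.3, with a mean-variance trend, no covariates, two-sided, and Benjamini-Hochberg adjustment over 10638 genes at 0.05. The remaining 6052 genes lay under 1 FPKM in more than 3 libraries. Fold changes on this scale understate those of low genes. Fragment counts were recovered from FPKM and group means of normalized counts, and all 100140 values were whole within 0.01 fragments. They served for Poisson intervals and for limma-voom. The fit was also run on simulated counts with the same relative spread beyond counting error for every gene. Such counts do not carry the spread between the real libraries, so nothing is concluded from that run.

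The members, lists and tests were chosen with earlier results of these data known. Named are the 4 genes, up to 3 called genes per list with the lowest adjusted p, a fixed set of 16 names (1 of them, Adipoq, is not analysed here), cadherins and protocadherins outside the clusters with at least 1 FPKM in any library, and the 5 genes most alike each of the 4. Any other gene, such as Fat1, Myod1, Col1a1, Thy1, Eng, Lepr and Pecam1, was chosen with its values in view. The labels do not say that libraries came from separate animals or cultures, and CKD replicates 1 and 3, like control replicates 1 and 2, have names with a common start, so p-values measure the spread between libraries, which may be technical. Gene symbols are those of the table, and 16123 of its identifiers were in a RefSeq gene table of GRCr8, used for neighbours only. Alternatives were leaving out libraries, another pseudocount, no filter, other scalings, a replicate block, averaging libraries with shared name starts, limma-voom and a marker covariate. That covariate was the mean log2(FPKM + 1) of the 13 haematopoietic and macrophage markers that passed the filter.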

Additional observations from a re-analysis of the deposited data

How the results depend on the processing

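Over 16 alternative settings Cdh2, Cdh13 and Pcdh20 kept a positive log2 fold change, and 14 settings each moved it by less than 1 SD between replicates. For Cdh2 it moved to 3.40 with a pseudocount of 0.1 and 3.48 in limma-voom on recovered counts, for Cdh13 to 3.94 without both first replicates and 2.37 with the haematopoietic covariate, and for Pcdh20 to 4.34 and 5.28 with the pseudocount and limma-voom. The pseudocount of 1 shrinks changes of genes under 1 FPKM, and otherwise the cause was not tested. Leaving out 1 library gave 2.54 to 2.91 for Cdh2, 3.02 to 3.72 for Cdh13, 2.43 to 2.72 for Pcdh20 and -0.15 to 0.08 for Cdh11, which changed sign in 2 of these fits and in no other setting. The genes of the 8 lists called higher, 0 as reported, numbered 0 to 5 without 1 library, 1 without both libraries with conflicting tags and 24 without both first replicates. Those called lower, 3 as reported, numbered 0 to 11 without 1 library, 1 without a filter, 1 without both libraries with conflicting tags, 28 without both first replicates, 0 with libraries of a shared name start averaged, 1 in limma-voom and 0 with the covariate. Over all tested genes limma called 3689 higher and 2162 lower without both first replicates, against 142 and 78 as reported. It called 1 and 3 with libraries of a shared name start averaged, and 6 and 11 with the covariate. Of the 16 settings, Cdh3 was called in 7, Lrp6 in 10 and Zeb1 in 5. The reported fit does not pair libraries by replicate number. Same-numbered deviations from the group means correlated at 0.04, -0.03 and 0.11, which cannot settle with 3 libraries per group whether the numbers pair them. A block by replicate number lowered the SE of Cdh2 from 0.216 to 0.105 and that of Cdh11 from 0.149 to 0.061. It raised that of Cdh13 from 0.409 to 0.482. With the replicate number as a block the list counts were 0 higher and 3 lower. Fgfr1 (limma adjusted p = 0.0493) then stood in place of Zeb1 (0.0756) beside Cdh3 and Lrp6. Cdh2 and Pcdh20 kept and Cdh13 lost an adjusted p under 0.05. Nothing is read from this, since these genes were picked on the same contrast. Over all genes 60 were higher and 28 lower with the block, against 142 and 78 without it. Not every library correlated best with its own number, since CKD replicate 2 did so with control replicate 1. With a depth of at least 34404037 fragments, counting error limits only values such as that of Pcdh20 in control replicate 1.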

Other observations

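Some genes of the lists had their extreme values in replicate 1 of each group. All but Snai2 were picked after their values were seen. Snai2, which encodes the cadherin repressor SLUG, had 34.7, 10.7 and 10.99 FPKM in CKD replicates 1, 2 and 3, against 21.6, 6.29 and 5.38 FPKM in control replicates 1, 2 and 3 (limma adjusted p = 0.536). Twist2, a relative of Twist1 found in dermal and osteoblast precursors, ran the other way, at 0.701, 4.72 and 5.24 FPKM in CKD, against 1.48, 5.73 and 6.91 FPKM in control.

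The desmosomal cadherin gene Dsc2 lay under the filter and was seen mainly in CKD replicates 2 and 3, at 0.0559, 1.47 and 1.44 FPKM in CKD replicates 1, 2 and 3, against 0.340, 0.0207 and 0.0113 FPKM in control. Gja1, which encodes the gap junction protein connexin 43, was highest in the same libraries, at 177, 444 and 346 FPKM in CKD, against 200, 158 and 162 FPKM in control, and did not pass the test (limma adjusted p = 0.246).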
